A study of Mus musculus with 12 samples.

Results

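The genes described here encode the non-GATA partners with which GATA factors sit on DNA in blood cells. They are the basic helix-loop-helix factors Tal1 (SCL) and Lyl1, the LIM-only adaptors Lmo2 and Lmo4, the LIM-binding protein Ldb1, its companions Ssbp2 and Ssbp3, and the corepressor Cbfa2t3 (ETO2). The 8 genes were chosen by symbol, and every probe set annotated to 1 of these symbols was taken, which gave 15 probe sets. The array holds 18193 genes with a single-symbol probe set. Of the 8 members 7 passed the filter on low values and entered the test, which covered 10759 genes.

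The cells were G1ME, a mouse line of megakaryocyte-erythroid progenitors that lacks Gata1, so all groups share that defect. They received either the empty retroviral vector MIGR1, which marks cells with green fluorescent protein (GFP), or the same vector carrying GATA1, and GFP-positive cells were sorted 18 h or 42 h later. Each of the 4 groups (vector at 18 h, GATA1 at 18 h, vector at 42 h, GATA1 at 42 h) had 3 arrays, lettered A, B and C and described as biological triplicates. All came from a single line under a retroviral promoter, which limits them as a model.

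In red cell and megakaryocyte progenitors, GATA1 or GATA2 and a dimer of TAL1 or LYL1 with an E protein bind neighbouring sites on DNA. LMO2 bridges them, and LDB1 holds the LIM domains and can pair with itself, which brings distant enhancers close to promoters. SSBP proteins protect LDB1 from degradation, and CBFA2T3 recruits deacetylases to the complex and restrains its target genes until cells mature. LMO4 is a paralog that also binds LDB1.

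The values are linear intensities of Affymetrix probe sets, whose level cannot be set against that of another gene's probe set. Array medians lay between 8.05 and 8.29, and the number of arrays limits the precision. Differences are on the log2(intensity + 16) scale from a limma fit over all genes, with an SE, and a call means a Benjamini-Hochberg adjusted p under 0.05. The 1 Gata1 probe set read 3002 ± 284 (SD, n = 3) in vector and 2334 ± 91.0 in GATA1 cells at 18 h, and 3137 ± 116 and 2044 ± 355 at 42 h. It was thus not higher in the cells labelled GATA1, and neither the labels nor the files say whether it reads the deleted part or the construct. It therefore checks no label, and every direction below rests on the labels. Of 8 megakaryocyte markers 7 exceeded the array median on all 12 arrays, as did 5 of 8 erythroid markers. So did 2 of 7 mast cell and basophil, 5 of 9 granulocyte and macrophage, 3 of 6 endothelial and 1 of 7 lymphoid markers. By definition as many probe sets lie above an array's median as below, so passing it is a weak sign of expression. In the same order 8, 6, 1, 3, 2 and 1 markers exceeded 100 on any array. On single arrays 29.2% to 29.7% of all probe sets exceeded 100. The arrays lettered A had the 18S ribosomal RNA control between 8.32 and 12.41 (log2), against 4.79 to 6.75 on those lettered C and 5.53 to 10.56 on those lettered B. On GATA1 42 h array A the 3′ to 5′ log2 ratio of beta-actin was 0.80, against 0.38 to 0.55 on the other arrays.

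Among the 7 tested members, Lmo2 was higher and Lyl1 lower in cells labelled GATA1 at both times. The other 5 (Tal1, Lmo4, Ldb1, Cbfa2t3 and Ssbp3) were not called in their brightest probe set at either time. At 18 h this was 1 member higher and 1 lower, while 1.85% of all genes tested were called, 1.11% higher and 0.744% lower. At 42 h it was again 1 higher and 1 lower, against a background of 20.9%, with 10.3% higher and 10.6% lower. The median difference of the 7 members was 0.05 at 18 h and -0.02 at 42 h, beside -0.01 and 0.00 over all genes tested. In their brightest probe sets the members thus did not move as a group: Lmo2 and Lyl1 moved in opposite directions, and the other 5 showed no call. A missing call does not show that a level stayed the same. A dimmer probe set of Cbfa2t3 was called lower at 42 h (-0.48, limma adjusted p = 0.00282).

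**Figure D1:**
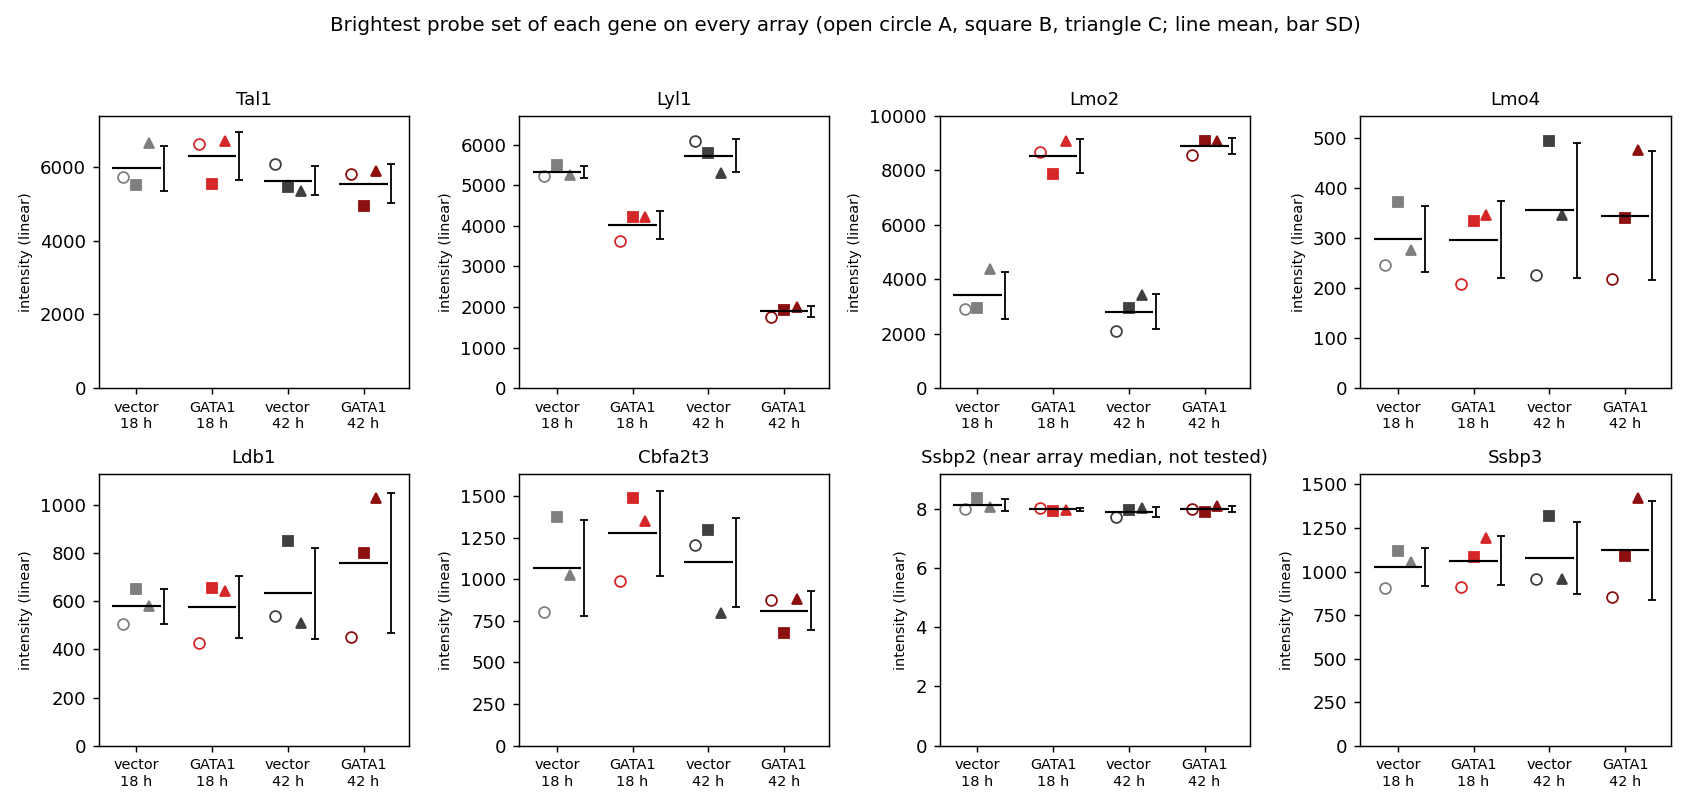
Linear intensity (y axis, from 0) of the brightest probe set of each of the 8 genes on each of the 12 arrays, by group (x axis), with the mean as a line and the SD as a bar. Lmo2 separates vector from GATA1 arrays at both times, Lyl1 is lowest at 42 h in GATA1 arrays (1750 to 2007), and Ssbp2 lies near the array median.

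Lmo2, the LIM-only bridge between the GATA factor and the helix-loop-helix dimer, was already higher at 18 h. The vector arrays A, B and C read 2896, 2944 and 4394 at 18 h, and the GATA1 arrays read 8673, 7868 and 9098. The lowest GATA1 array stood above the highest vector array, as for 5.47% of all genes tested, and the group means were 3411 ± 852 and 8546 ± 625 (SD, n = 3). The difference was 1.35 ± 0.19, a 2.54-fold rise (limma adjusted p = 0.0074), which ranked 42 by size among the 10759 genes. At 42 h the vector arrays read 2105, 2936 and 3406 and the GATA1 arrays 8576, 9069 and 9068. The groups again did not overlap, as for 16.8% of genes in this direction, with a difference of 1.68 ± 0.19, or 3.21-fold (adjusted p = 2.24e-04).

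The rise of Lmo2 was not called different between the times, though the interval leaves room for a larger rise at 42 h. The GATA1 effect at 42 h minus that at 18 h was 0.34 ± 0.27 (95% interval -0.27 to 0.95, adjusted p = 0.679), where 4.66% of all genes were called, 2.29% in the positive and 2.37% in the negative direction. In GATA1 cells alone Lmo2 differed by 0.06 between the times (95% interval -0.37 to 0.49), with 14.6% of all genes called in that comparison, 6.72% higher and 7.91% lower. In vector cells it differed by -0.28 (95% interval -0.71 to 0.15). Ordered by mean, Lmo2 was lowest in vector at 42 h, then vector at 18 h, GATA1 at 18 h and GATA1 at 42 h, and only the step from vector to GATA1 had no overlapping arrays. The call at 18 h ended with only the 6 arrays compared (adjusted p = 0.0716) and without the 4 arrays lettered A (1.23, adjusted p = 0.108).

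Lmo4, the other LIM-only gene, showed no call. Its vector arrays read 246, 372 and 277 at 18 h and 226, 495 and 347 at 42 h. The GATA1 arrays read 209, 335 and 347 at 18 h and 219, 340 and 476 at 42 h. All 4 groups overlapped, and the differences were -0.02 (95% interval -0.79 to 0.75) at 18 h and -0.04 (-0.81 to 0.73) at 42 h. These intervals are wide enough to hold a change of over 1.5-fold in either direction, so they do not show that Lmo4 stayed level.

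Lyl1, a basic helix-loop-helix factor closely related to Tal1, was lower in cells labelled GATA1, and more so with time. At 18 h the vector arrays read 5242, 5498 and 5257 and the GATA1 arrays 3616, 4222 and 4215. The groups did not overlap, as for 9.93% of all genes in this direction, and the difference was -0.41 ± 0.08, or 1.33-fold lower (adjusted p = 0.0337). At 42 h the vector arrays read 6103, 5804 and 5293 and the GATA1 arrays 1750, 1926 and 2007. Every GATA1 array was far below every vector array, while 16.6% of all genes had GATA1 arrays wholly below, and the difference was -1.59 ± 0.08, or 3.01-fold lower (adjusted p = 1.14e-06).

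The deepening of the Lyl1 fall was itself past the threshold. The GATA1 effect at 42 h minus that at 18 h was -1.18 ± 0.11 (adjusted p = 3.70e-04). Within GATA1 cells Lyl1 fell by 1.08 from 18 h to 42 h on the log2 scale (adjusted p = 2.83e-05), while in vector cells it differed by 0.10 ± 0.08 (adjusted p = 0.996). By mean the order was GATA1 at 42 h, GATA1 at 18 h, vector at 18 h and vector at 42 h. The vector groups overlapped with each other, and the other neighbours did not. The small difference at 18 h is the less firm of these results. Its call ended in 11 of 21 alternatives, among them leaving out any single 18 h array, vector 42 h array B or GATA1 42 h array B (adjusted p between 0.0584 and 0.122). The difference itself lay between -0.45 and -0.34 throughout. The calls at 42 h, over time and for the deepening held in all alternatives run.

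The window around the Lyl1 start site is shown because this gene had the clearest fall. It covers 250 bases before and 50 after the start in RefSeq's table for GRCm38.p6, at chr8:84701207-84701506 on the plus strand, and capitals mark CAGNTG, a core of the E-box that helix-loop-helix dimers bind. Both strands were searched.
Lyl1: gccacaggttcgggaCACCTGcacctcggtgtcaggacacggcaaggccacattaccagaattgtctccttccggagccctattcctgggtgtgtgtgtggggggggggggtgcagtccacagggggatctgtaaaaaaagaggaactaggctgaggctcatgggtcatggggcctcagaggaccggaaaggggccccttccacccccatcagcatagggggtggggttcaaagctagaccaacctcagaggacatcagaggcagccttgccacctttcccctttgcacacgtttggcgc
The window held 1 CAGNTG match, whose first base lies 235 bases before the start site, and 0 matches to the GATA core GATAA. Over all 32851 windows of this length in the table, 51.4% held CAGNTG and 25.4% held GATAA. A missing match says only that these letters are not in this window.

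Tal1 itself, the helix-loop-helix factor that gives the complex its other name, SCL, showed no call in any of the 5 comparisons. Its vector arrays read 5734, 5510 and 6643 at 18 h and 6086, 5453 and 5358 at 42 h. The GATA1 arrays read 6624, 5542 and 6718 at 18 h and 5803, 4954 and 5903 at 42 h. All groups overlapped, and the 12 values spanned 4954 to 6718. The differences were 0.08 (95% interval -0.16 to 0.31) at 18 h and -0.02 (-0.26 to 0.21) at 42 h. A change of Tal1 as large as that of Lmo2 at either time, or as large as that of Lyl1 at 42 h, lies outside these intervals.

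**Figure D2:**
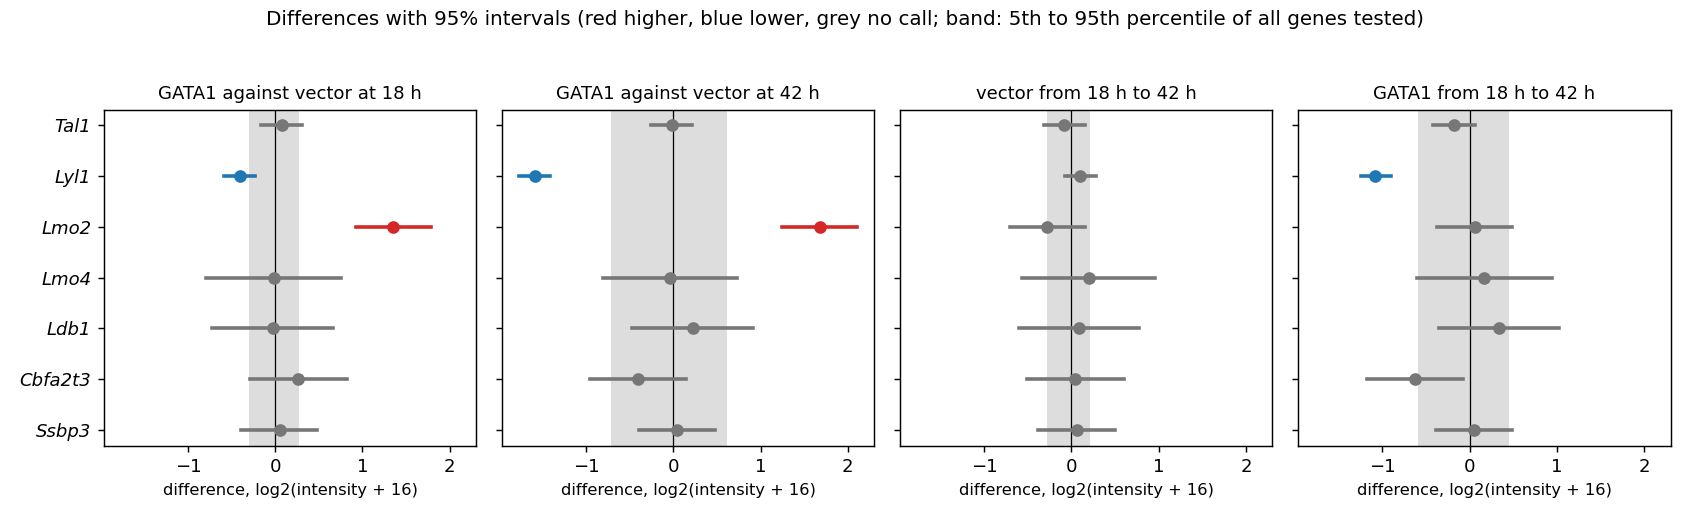
Differences in log2(intensity + 16) (x axis) of the 7 tested members with 95% intervals in 4 comparisons, over a grey band from the 5th to the 95th percentile of all 10759 genes tested. Lmo2 (1.35 and 1.68) and Lyl1 (-0.41 and -1.59) leave the band at both times, and in vector cells over time no member is called.

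Ldb1, which anchors the LIM domains and pairs complexes across a loop, showed no call. Its vector arrays read 506, 652 and 580 at 18 h and 537, 848 and 511 at 42 h. The GATA1 arrays read 427, 656 and 644 at 18 h and 450, 800 and 1027 at 42 h. The groups overlapped at both times, and the widest range was that of GATA1 cells at 42 h. The differences were -0.03 (95% interval -0.72 to 0.66) at 18 h and 0.22 (-0.47 to 0.91) at 42 h. Without GATA1 42 h array C the later value was -0.03.

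Ssbp3, a stabiliser of LDB1, has 2 tested probe sets, and neither was called. The brighter read 907, 1118 and 1056 in vector and 913, 1084 and 1194 in GATA1 cells at 18 h. At 42 h it read 959, 1318 and 960 in vector and 854, 1092 and 1421 in GATA1 cells. Its differences were 0.05 (95% interval -0.39 to 0.48) at 18 h and 0.04 (-0.39 to 0.48) at 42 h. The second probe set, whose s suffix marks probes shared with other transcripts, read between 698 and 1022 and differed by -0.02 and 0.07.

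Ssbp2, the other stabiliser, could not be tested. Its 4 probe sets read between 3.91 and 8.35 on all arrays, near or below the array medians of 8.05 to 8.29. The brightest exceeded its array's median on 1 array and the other 3 on 0. No level can be told from the bottom of the scale there, and no difference is given.

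Lmo4, Ldb1 and Ssbp3 varied together across arrays, and their lowest values fell mostly on 1 replicate letter. Over the 12 arrays Pearson's r of their log2 values was 0.88 for Lmo4 with Ldb1, 0.91 for Lmo4 with Ssbp3 and 0.94 for Ldb1 with Ssbp3. For Lmo4 and the brighter Ssbp3 probe set the lowest value of each of the 4 groups was on the array lettered A, and for Ldb1 this held in 3 of 4 groups. Among all genes tested 8.28% (891) had their lowest value on array A in all 4 groups. Lmo4 read 209 to 246 on the arrays lettered A and 277 to 495 on the others, with no overlap. The brighter Ssbp3 probe set read 854 to 959 against 960 to 1421, which barely separates them. The second Ssbp3 probe set did not share this: it read 698 to 771 against 718 to 1022, and array A was lowest in 1 of 4 groups. In 3 of 4 groups array A also had the highest 18S control value, while in vector at 18 h array B did (10.56 against 8.32). The part of the 18S signal in the spread was not tested.

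**Figure D3:**
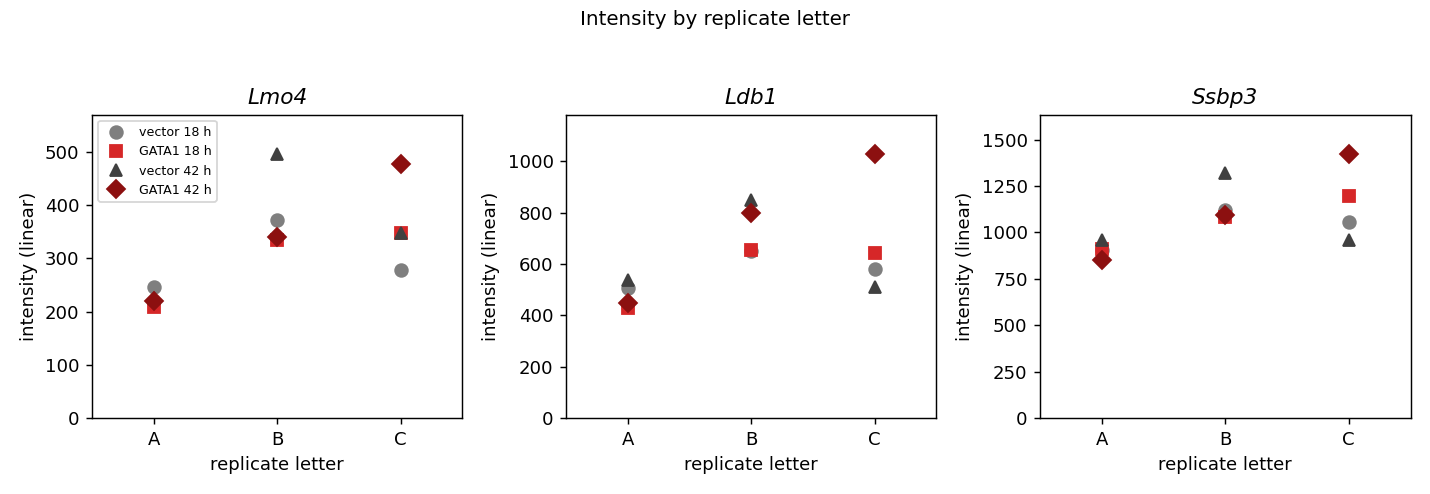
Linear intensity (y axis, from 0) of the brightest probe set of Lmo4, Ldb1 and Ssbp3 against the replicate letter (x axis). There is 1 point per array, with the groups as symbols. The arrays lettered A (209 to 246 for Lmo4, 427 to 537 for Ldb1, 854 to 959 for Ssbp3) are the lowest of every group for Lmo4 and Ssbp3, and of 3 of 4 groups for Ldb1, where array C of vector at 42 h is lower (511).

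Cbfa2t3 (ETO2), the corepressor of the complex, has 4 probe sets, all tested, and all 4 had their lowest mean in GATA1 cells at 42 h. In the brightest, 1438705_at, vector arrays read 805, 1374 and 1027 at 18 h and 1207, 1297 and 797 at 42 h. Its GATA1 arrays read 990, 1486 and 1350 at 18 h and 875, 677 and 881 at 42 h. Vector and GATA1 arrays overlapped at both times, and the difference at 42 h was -0.41 ± 0.25 (95% interval -0.96 to 0.14, adjusted p = 0.303). Within GATA1 cells the arrays at 42 h all lay below those at 18 h, as for 15.1% of genes in that direction. That difference, -0.63 ± 0.25, was not called (adjusted p = 0.129).

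The dimmest probe set of Cbfa2t3, 1440963_at, varied least and was called. It read 81.9, 88.8 and 96.5 in vector and 99.0, 98.8 and 89.8 in GATA1 cells at 18 h. At 42 h it read 83.0, 83.0 and 78.8 in vector and 58.0, 58.4 and 45.8 in GATA1 cells, so those groups did not overlap. Fitted over all 19636 tested probe sets, of which 15.8% were called at 42 h and 7.79% were lower, it differed by -0.48 ± 0.08 (adjusted p = 0.00282). From 18 h to 42 h in GATA1 cells it fell by 0.68 on the log2 scale (adjusted p = 7.18e-04), where 10.5% of probe sets were called and 5.54% were lower. The GATA1 effect at 42 h minus that at 18 h was -0.57 ± 0.11 (adjusted p = 0.0282, against 2.98% of probe sets, 1.50% in this direction). That last call ended in 8 of 19 alternatives, with adjusted p up to 0.216, the others in none.

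The 2 other probe sets lay between. That called 1418582_at read 666, 701 and 696 in vector and 641, 849 and 744 in GATA1 cells at 18 h. At 42 h it read 745, 732 and 538 in vector and 550, 517 and 511 in GATA1 cells, and these overlapped. It differed by -0.33 ± 0.13 at 42 h (adjusted p = 0.127) and by -0.48 ± 0.13 over time in GATA1 cells (adjusted p = 0.0435). Probe set 1440964_s_at, designed from the same sequence entry as 1440963_at, differed by -0.43 ± 0.21 (adjusted p = 0.232) and by -0.92 ± 0.21 (adjusted p = 0.0246). At 18 h all 4 probe sets lay slightly higher in GATA1 than in vector cells, by 0.09 to 0.26, and none was called. The 4 thus had the same signs and differed in call.

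Single arrays decided some of these calls. Over time in GATA1 cells 1418582_at lost its call in 13 of 21 alternatives. These included leaving out any vector 18 h array, GATA1 18 h arrays B or C, vector 42 h array B or any GATA1 42 h array (adjusted p between 0.0502 and 0.142). Over the same comparison 1440964_s_at lost it in 6 of 21, among them leaving out any GATA1 18 h array or GATA1 42 h array C (0.0550 to 0.0778). At 42 h 1418582_at passed without vector 42 h array C (-0.48, adjusted p = 0.0134). The call of 1440963_at for the effect at 42 h minus that at 18 h ended without vector 18 h arrays A or B, GATA1 18 h arrays A or B, or vector 42 h arrays A or B (0.0649 to 0.0794).

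**Figure D4:**
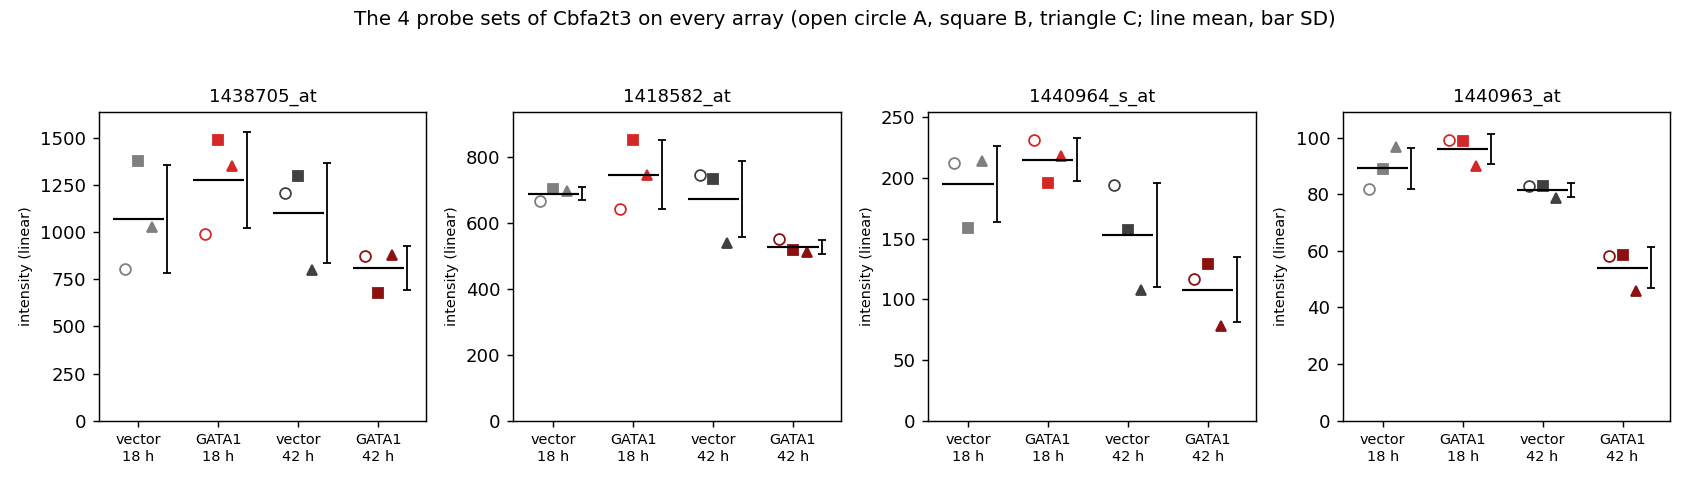
Linear intensity (y axis, from 0) of the 4 Cbfa2t3 probe sets on each array by group (x axis), with mean (line) and SD (bar). All 4 have their lowest mean in GATA1 cells at 42 h, and only in 1440963_at do these arrays (45.8 to 58.4) stand apart from the vector arrays of the same time (78.8 to 83.0).

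A window of Cbfa2t3 is shown because it holds the paired letters that GATA and helix-loop-helix factors bind together. The search took CANNTG followed by GATA after 8 to 10 bases, on both strands, in the 14 windows that RefSeq's GRCm38.p6 table lists for 7 of the members. Only this window, chr8:122699060-122699359 on the minus strand, held the pair. Capitals mark GATAA and CAGNTG on either strand.
Cbfa2t3: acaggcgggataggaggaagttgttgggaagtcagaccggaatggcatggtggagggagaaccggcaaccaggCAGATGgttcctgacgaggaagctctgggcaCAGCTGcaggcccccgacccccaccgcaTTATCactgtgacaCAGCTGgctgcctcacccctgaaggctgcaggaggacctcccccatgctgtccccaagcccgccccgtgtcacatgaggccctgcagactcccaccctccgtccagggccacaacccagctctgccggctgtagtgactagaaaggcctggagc
The pair reads on the strand opposite to the gene, with 9 bases between CANNTG and GATA, and some of its letters are also counted as CAGNTG and GATAA matches. Of all 32851 windows 1.63% hold such a pair. Taken singly, GATAA was in 4 and CAGNTG in 6 of the 14 member windows, beside 25.4% and 51.4% of all windows. A match is a description of the letters, and binding was not measured here.

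From 18 h to 42 h in vector cells 0 of the 7 members were called by limma, and 0 had an unadjusted p under 0.05. Over all genes tested 2, or 0.0186%, were called, and 676 (6.28%) had an unadjusted p under 0.05. The differences of the members ran from -0.28 for Lmo2 to 0.20 for Lmo4. In GATA1 cells 1 member, Lyl1, was called over the same interval, and the differences ran from -1.08 for Lyl1 to 0.34 for Ldb1. These comparisons share arrays with those of GATA1 against vector and are no separate support for them.

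Paralogs of the members gave no call, but only 2 of them were bright enough to show a fall. Of 7 listed paralogs (Tal2, Lmo1, Lmo3, Ldb2, Cbfa2t2, Runx1t1 and Ssbp4) 4 were tested. At 18 h 0 were called and at 42 h 0, with medians of -0.01 and -0.08, beside 1.85% and 20.9% of all genes called. Ldb2 (8.96 to 10.1) and Runx1t1 (8.52 to 8.94) lay just above the array medians, where a fall cannot show on this scale. Cbfa2t2 differed by -0.08 ± 0.12 and -0.15 ± 0.12, and Ssbp4, the brightest, by 0.06 ± 0.21 and -0.25 ± 0.21.

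The partners of TAL1 and LYL1 on DNA, the E proteins, and their ID inhibitors split. Of 7 listed 5 were tested. At 18 h 0 were called, where 1.85% of all genes were, with a median of -0.20 over the 5. At 42 h the median was -0.09 and 2 were lower, beside 10.6% of all genes. Both were ID genes, which block E proteins from binding DNA. Id1 read 1524 ± 419 in vector and 650 ± 137 in GATA1 cells at 42 h (-1.19 ± 0.32, adjusted p = 0.0256). Id2 read 138 ± 16.9 and 59.3 ± 29.3 (-1.10 ± 0.28, adjusted p = 0.0222). The E proteins Tcf3, Tcf4 and Tcf12 differed by -0.05, -0.09 and 0.05 at 42 h, with adjusted p of 0.684 or more. The Id1 call ended without vector 42 h arrays B or C or GATA1 42 h array A (adjusted p 0.0759 to 0.0817). That of Id2 ended without vector 42 h arrays A or B or GATA1 42 h arrays B or C (0.0576 to 0.0708). Both calls at 42 h held in a limma fit with the replicate letter as a block. In that fit Id1 (-0.68, adjusted p = 0.0129) and Id2 (-1.05, 0.0182) were also called lower at 18 h, where it called 358 genes.

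Of the GATA factors and the cofactor FOG1 (Zfpm1), 3 of 4 were tested. At 18 h 0 were called, where 1.85% of all genes were, and at 42 h 2 were lower, where 10.6% were. These were Gata2 and the 1 Gata1 probe set, and it is unknown whether the latter reads the deleted part or the construct. Its value is thus no measure of the GATA1 given to the cells. Gata2, the GATA factor that occupies the complex in early progenitors, read 3208 ± 679 in vector and 623 ± 176 in GATA1 cells (-2.36 ± 0.31, adjusted p = 5.41e-04). Zfpm1 read 2915 ± 626 and 3808 ± 1142 and was not called (adjusted p = 0.468).

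Of 8 other transcription factors that bind beside the complex 6 were tested. At 18 h 2 were higher and 0 lower, beside 1.11% and 0.744% of all genes. At 42 h 2 were higher and 2 lower, beside 10.3% and 10.6%. Klf1, the erythroid Kruppel-like factor, rose by 2.92 and 4.05. Gfi1b, a repressor needed in red cells and megakaryocytes, rose by 0.78 (adjusted p = 0.00352) and 0.55 (adjusted p = 0.00297). Its call at 18 h ended with only the 6 arrays compared (adjusted p = 0.0913) and without those lettered A (0.108). Cbfb, the partner subunit of RUNX1, read 3937 ± 31.6 in vector and 1279 ± 104 in GATA1 cells at 42 h (-1.61 ± 0.07, adjusted p = 4.58e-07). At 18 h Cbfb was called lower only with the replicate letter as a block (-0.24, limma adjusted p = 0.0341). Etv6 fell by 0.45 in its brightest probe set and differed by -0.05 in the second (adjusted p = 0.959).

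Of the corepressors, coactivators and the LDB1 ubiquitin ligase Rlim, 12 were tested, with medians of -0.03 at 18 h and 0.01 at 42 h. At 18 h 0 were called, where 1.85% of all genes were, and at 42 h 2 were, where 20.9% of all genes were, so the counts are near the background. At 42 h Hdac1 was higher (0.21 ± 0.05, adjusted p = 0.0240) and Sin3a lower (-0.43 ± 0.08, adjusted p = 0.0059). Both are parts of deacetylase complexes. The call of Hdac1 ended without vector 42 h arrays A or B or any GATA1 42 h array (adjusted p 0.0528 to 0.0809). It also ended with a stricter filter (0.0749), in a fit of the 6 arrays at 42 h alone (0.0766) and when the 4 arrays lettered A were dropped (0.179), so 8 of 21 alternatives ended it. That of Sin3a ended without the arrays lettered A (0.0780). Rlim differed by 0.10 ± 0.15 and -0.15 ± 0.15.

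The reported target genes of the complex in red cells moved in both directions. Of 13 tested 3 were higher and 1 lower at 18 h, with a median of 0.20, where 1.11% and 0.744% of all genes were. At 42 h 7 were higher and 5 lower, with a median of 0.55, where 10.3% and 10.6% of all genes were. Alas2, among the 7, passed the filter only through the GATA1 42 h arrays (43.8 to 91.5), so its call is no support. Hba-a1, at the bottom of the scale in all groups, was not tested. The list was chosen with earlier results of these data known, so these counts are a description only. The embryonic globins Hbb-y and Hbb-bh1 rose most at 42 h, by 7.88 and 5.53. Kit, the receptor for stem cell factor, and the cell cycle inhibitor Cdkn1c were the largest falls, at -3.42 and -1.24. Kit was the 1 target lower at 18 h (-1.67), and its second probe set differed by -0.53 at 18 h (adjusted p = 0.824) and by -1.92 at 42 h, where it kept its call. The 18 h call of Kit also ended without the arrays lettered A (0.0801). That of Hbb-y (3.99) ended without those arrays (0.108) and with only the 6 arrays compared (0.0788). Some of these targets, Klf1, Gata1 and Gfi1b, are also in the lists above. Gata1 is among the 5 lower at 42 h, with the same limit on what its probe set reads. Cdkn1c read 90.0 ± 31.1 in vector and 27.8 ± 4.48 in GATA1 cells at 42 h (adjusted p = 0.0124).

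**Figure D5:**
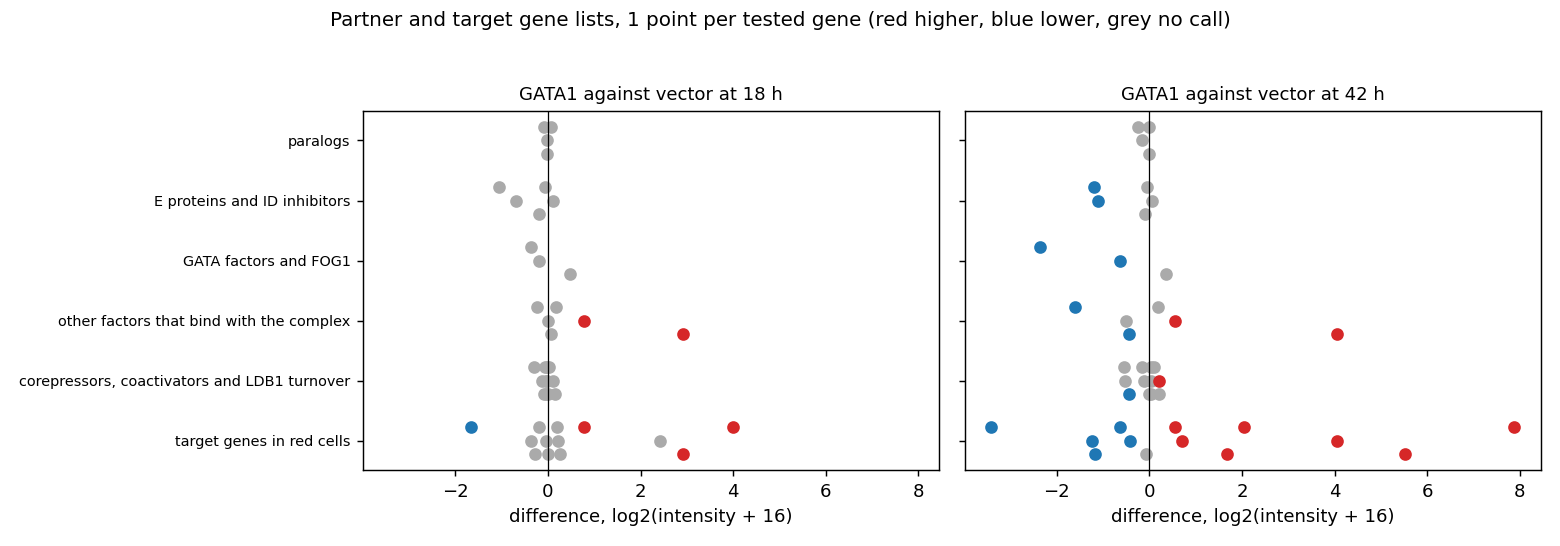
Differences in log2(intensity + 16) (x axis) between GATA1 and vector cells at 18 h and 42 h for each tested gene of 6 lists of partners and targets (y axis), 1 point per gene, coloured by call. At 42 h the target genes spread from -3.42 (Kit) to 7.88 (Hbb-y), while paralogs lie within 0.25 of 0.

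Marker lists of several cell types also shifted between vector and GATA1 arrays, and some of these sums rest on a single gene. The summed intensity of 8 erythroid markers was 384 to 1540 in vector and 3870 to 5650 in GATA1 arrays at 18 h, and 438 to 968 and 32616 to 38767 at 42 h. That of 8 megakaryocyte markers was 14600 to 17889 and 21902 to 27738 at 18 h, and 16514 to 16982 and 31870 to 40588 at 42 h. Both sums were thus higher at both times with no overlap of arrays, but a sum mostly follows its brightest probe sets. Most of the erythroid sum in GATA1 cells at 42 h was Hbb-bh1 and Hbb-y, with means of 15825 and 13812. Of the 8 megakaryocyte markers 2 were called higher at 18 h and 5 at 42 h. At 42 h 1, Gp9, was called lower (-0.38 ± 0.11, limma adjusted p = 0.0423) and 2 were not called. Of 7 tested erythroid markers 3 were called higher at 18 h and 7 at 42 h. Alas2 (means of 3.18 in vector and 65.1 in GATA1 cells at 42 h) and Ermap (4.22 and 200) passed the filter only through the GATA1 42 h arrays. Vwf, a megakaryocyte marker (5.28 and 890), passed it only through GATA1 arrays. Their high values thus brought them into the test, and their calls are no support for a shift of either list. Hba-a1, at 5.36 to 5.44 on all arrays, was not tested. Over all genes tested 1.11% were higher at 18 h, and 10.3% were higher and 10.6% lower at 42 h. The mast cell and basophil sum (1488 to 2194 and 795 to 927 at 18 h, 1558 to 2628 and 71.7 to 106 at 42 h) is almost wholly the protease gene Cpa3, the 1 of 7 markers above 100 on any array. Cpa3 read 2008 ± 541 in vector and 49.9 ± 15.9 in GATA1 cells at 42 h, while Hdc, the other tested marker, read 14.8 and 16.3. Fcer1a, Ms4a2 and Mcpt8 stayed at the bottom of the scale in all groups. The granulocyte and macrophage sum of 9 markers was 2819 to 3129 and 1138 to 1560 at 18 h, and 2474 to 2686 and 434 to 536 at 42 h. Most of it was the Fc receptor gene Fcgr3, with means of 1830 and 59.3 at 42 h. Of the 6 tested in that list 1 was higher and 2 lower at 42 h, and the higher was Prtn3 (23.5 ± 3.06 and 63.5 ± 16.1, adjusted p = 0.00102). The lymphoid sum of 7 markers was 110 to 176 and 82.0 to 135 at 18 h, and 91.8 to 166 and 54.1 to 81.3 at 42 h, with 1 marker above 100 on any array. Endothelial markers, of another lineage with Tal1 and Lmo2, summed to 861 to 1195 and 991 to 1329 at 18 h, and 811 to 1049 and 860 to 1222 at 42 h, which overlapped. The part of these shifts in the differences of Lmo2 and Lyl1 was not tested, and in bulk samples fewer cells of a type and less RNA per cell cannot be told apart.

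Across the 12 arrays the genes most like Lyl1 were Cmtm7 (Pearson's r = 0.994), Myo1g (0.992) and Eml4 (0.991). Cmtm7 had group means of 7698 in vector and 5340 in GATA1 cells at 18 h and 8411 and 1460 at 42 h. For Lmo2 they were Slamf1 (0.978), Slc14a1 (0.977) and Dusp3 (0.974), and Slamf1 had means of 372, 1185, 295 and 1537 in the same order. For Cbfa2t3 they were Ripor1 (0.938), Rin3 (0.928) and Gnai2 (0.908), and for Tal1 Usp24 (0.839), Pdzk1ip1 (0.820) and Ero1a (0.818). The last set is weaker in likeness, and Pdzk1ip1 is the next gene after Tal1 on its chromosome in RefSeq's table. Lmo4 was most like Sfpq, Mrps35 and Ilkap, Ldb1 most like Ilkap, Ssbp3 and Rapgef1, and Ssbp3 most like Ncln, Rapgef1 and Rad23b, with r between 0.925 and 0.958. The arrays of a group share their treatment, so these values describe likeness only. Same-letter arrays also mostly deviated alike from their group's mean, more for A (r of 0.45 to 0.66) and C (0.33 to 0.65) than for B (-0.11 to 0.38). Between Lyl1 and Lmo2 r was -0.79.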

How the data were processed

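Linear intensity values of 45101 probe sets on 12 arrays were used as deposited. GCRMA and MAS5 stand in the submitters' processing notes, with no version and no role, so how the authors corrected and scaled the deposited intensity values is unknown. Probe sets were named through the platform annotation, which gives 1 symbol for 34945 of them. The brightest probe set by mean over the 12 arrays stood for a gene and was tested where it exceeded the array median on at least 3 arrays. On the scale log2(intensity + 16), a limma model (version 3.58.1, R 4.3.3, with empirical Bayes variances) of the 4 groups was fitted to all 12 arrays. Tests were two-sided, with Benjamini-Hochberg adjustment over all genes tested and a threshold of 0.05. A second fit took all 19636 single-symbol probe sets past the same filter. The fit was tested on simulated data. Intervals are 95% intervals of the fit. The p-values measure only the spread between these arrays.

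The members and gene lists were chosen with earlier results of these data known. Named genes are the 8 members, up to 2 rises and 2 falls per list at 42 h (1 each at 18 h), or the brightest tested member of a list without a call; other list members named were chosen after their values were seen. Likeness took the 3 genes with the highest Pearson's r over the 12 arrays, clone-type names left out. Promoter windows come from RefSeq (GRCm38.p6) and matched 7 of the 8 members. The deposited file names no genome build.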

Additional observations from a re-analysis of the deposited data

Results flagged for a closer look

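For Lyl1 the GATA1 effect differed between the times: the effect at 42 h minus that at 18 h was -1.18 (limma adjusted p = 3.70e-04). For the Cbfa2t3 probe set 1440963_at this difference was -0.57 (adjusted p = 0.0282), a call that ended in 8 of 19 alternatives, while the 3 other probe sets of the gene had -0.68, -0.43 and -0.57 without a call.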

How the results depend on the processing

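All 21 alternatives kept the direction and call of Lmo2 and Lyl1 at 42 h, with differences of 1.49 to 1.83 and -1.65 to -1.49. At 18 h, where 2 members were called, 1 was when dim genes were kept, 0 with the 6 arrays compared alone, 0 without the 4 arrays lettered A (a setting chosen after seeing the data), and 1 to 2 on leaving out each array. From 18 h to 42 h in GATA1 cells, where 1 was called, 2 were with array weights, which added Cbfa2t3 (-0.86, adjusted p = 0.0102), and 2 with every probe set tested separately. The difference of the effects had 1 member called and 2 with every probe set tested separately. Only Cbfa2t3 and Ssbp3 have a second tested probe set, and with it 0 members were called in any comparison.

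Over all genes 199 were called at 18 h, against 119 with no filter, 54 with only the arrays compared, 34 without the arrays lettered A, 41 in second probe sets and 101 at the least on leaving out an array. At 42 h the count was 2251, and 643 in second probe sets. The difference of the effects had 501, against 319 with no filter, 259 without the arrays lettered A, 100 in second probe sets and 323 without GATA1 18 h arrays B or C. GATA1 over time had 1574, against 2929 with array weights and 406 in second probe sets, and vector over time had 2, against 0 to 5 in the alternatives without a replicate block. The cause was not tested, except that second probe sets are fewer.

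The pairing of arrays by replicate letter was checked: deviations from their group's mean had correlations between -0.11 and 0.66 for same-letter arrays, over 0.1 in 16 of 18 pairs, and 11 of 12 arrays correlated best with their own letter. With a replicate block 358, 3053, 846, 41 and 2315 genes were called (GATA1 effect at 18 h, at 42 h, their difference, vector over time, GATA1 over time), and the members called were the same 2, 2, 1, 0 and 1. Among the partner genes the block added calls at 18 h for Id1 (-0.68, adjusted p = 0.0129), Id2 (-1.05, 0.0182) and Cbfb (-0.24, 0.0341), all lower. Signal near the bottom of the scale limits Ssbp2.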
